A study of Mus musculus with 12 samples.

Results

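A set of 10 genes that FO B cells use to engage T cells or that mark their activation was followed across the 4 conditions of the study: Cd80, Cd86, Icosl, Cd274, Cd40, Cd83, Cd44, Il2ra, Fas and Icam1. They were chosen by name, and all 10 were found among the 22561 genes of the count table. Of these, 8 passed the filter on low counts and were tested among 9431 genes, whereas Fas and Icam1 did not pass. FO B cells had been sorted by FACS from the spleens of 10-week-old mice labelled C57BL6, and were either left unstimulated or stimulated for 12 h with IFNα, with CpG, or with CpG + IFNα, with 3 samples in each group. CpG, a synthetic oligodeoxynucleotide, is a ligand of TLR9, and IFNα belongs to the type I interferons. The question was how IFNα alters the response of these cells to TLR9 stimulation. The sources do not say whether the unstimulated cells were also cultured for 12 h, so that in every comparison with them stimulus and culture cannot be told apart. They also do not say whether the 3 samples of a group came from separate mice, and p-values then measure only the spread between these samples.

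A B cell that presents antigen to a helper T cell also needs to provide costimulation. CD80 and CD86 bind CD28 on the T cell and are also bound by the inhibitory receptor CTLA-4, ICOSL binds ICOS, and PD-L1, the product of Cd274, engages the inhibitory receptor PD-1. In the other direction, CD40 on the B cell receives CD40 ligand from the T cell and signals through TRAF adaptors to NF-κB. CD83, CD44 and the IL-2 receptor α chain CD25, the product of Il2ra, are widely used as surface markers of activated lymphocytes, ICAM-1 is the ligand of the integrin LFA-1, and Fas is a death receptor. RNA levels do not show how much of each protein is at the cell surface.

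BRB-seq, a barcoded bulk method, was used for the libraries, so that each unique molecular identifier (UMI) counts a molecule near the 3′ end of a transcript. Levels are given as TMM-scaled CPM of the UMI counts (normalized CPM), and are compared between samples, not between genes. Totals ranged from 922450 counts in an unstimulated sample to 2923865 in a CpG + IFNα sample, so that a single count stood for between 0.345 and 1.07 normalized CPM. The share of counts from mitochondrial genes was 5.91% to 8.52% in the 6 samples without CpG and 2.99% to 4.85% in the 6 samples with it. The summed level of 7 B cell markers ranged from 6839 to 7782 normalized CPM without CpG and from 1198 to 1505 with it. That of 3 follicular markers was 4413 to 5057 without stimulus, 3057 to 3624 after IFNα and 847 to 1105 in samples with CpG. Without stimulus and after IFNα, mean Fcer2a was 1227 and 244, Cr2 412 and 81.5, and Ighd 3005 and 2997. Of the 8 T cell markers in the table, 7 had at most 3 counts in every sample, and Cd3g and Cd8a had none. The summed level of 7 myeloid markers was 13.6 to 36.4 without stimulus, 8.07 to 17.6 after IFNα, 4.91 to 7.49 after CpG and 5.17 to 7.19 after both. Among these, Adgre1 had 5 summed counts without stimulus and 36 after IFNα, whereas all others had fewer counts after IFNα than without stimulus. Globin and other erythroid markers summed to 51.2 to 317, 11.4 to 312, 4.49 to 55.9 and 5.65 to 63.3 normalized CPM in the same order. Markers of marginal zone B cells summed to 224 to 231 without stimulus, 89.8 to 124 after IFNα and 27.8 to 57.0 with CpG. Those of plasma cells summed to 119 to 145 without stimulus, 97.9 to 114 after IFNα, 54.2 to 80.4 after CpG and 45.9 to 73.5 after both. Those of NK cells summed to 3.53 to 4.55 without stimulus and at most 1.82 in any stimulated sample. Those of dendritic cells summed to 7.63 to 22.1 over all samples. The part of other cells in the results was not tested. In bulk RNA, fewer cells that express a gene and less of its RNA per cell cannot be told apart.

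CpG moved most of the tested genes other than Cd80, in both directions, and the effect of IFNα differed with the presence of CpG for 4 of them. DEGs were genes with an adjusted p under 0.1 in edgeR's quasi-likelihood test and a change of more than 2-fold. Cd80 entered the test only through its samples with CpG, so that its difference was fixed in part by the filter on low counts, and it is left out of the counts here. With CpG, 2 of the other 7 tested genes were up-regulated against unstimulated cells (Cd44 and Il2ra), beside 20.1% of all genes tested, and 3 were down-regulated (Cd86, Icosl and Cd274), beside 25.5%. With CpG + IFNα, 2 were up-regulated (again Cd44 and Il2ra), beside 20.3% of all genes, and 2 were down-regulated (Cd86 and Icosl), beside 25.6%. The calls of Cd274 with CpG and of Cd86 with CpG + IFNα were lost when certain single samples were left out, as given below. With IFNα alone, 0 were up-regulated, beside 4.56% of all genes, and only Cd83 was down-regulated, beside 4.07%. At an adjusted p under 0.1 with no limit on the fold change, 1 gene was higher with IFNα (Cd86), beside 12.4% of all genes, and 3 were lower (Cd40, Cd83 and Cd44), beside 11.9%. These 3 comparisons share the same unstimulated samples.

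**Figure D1:**
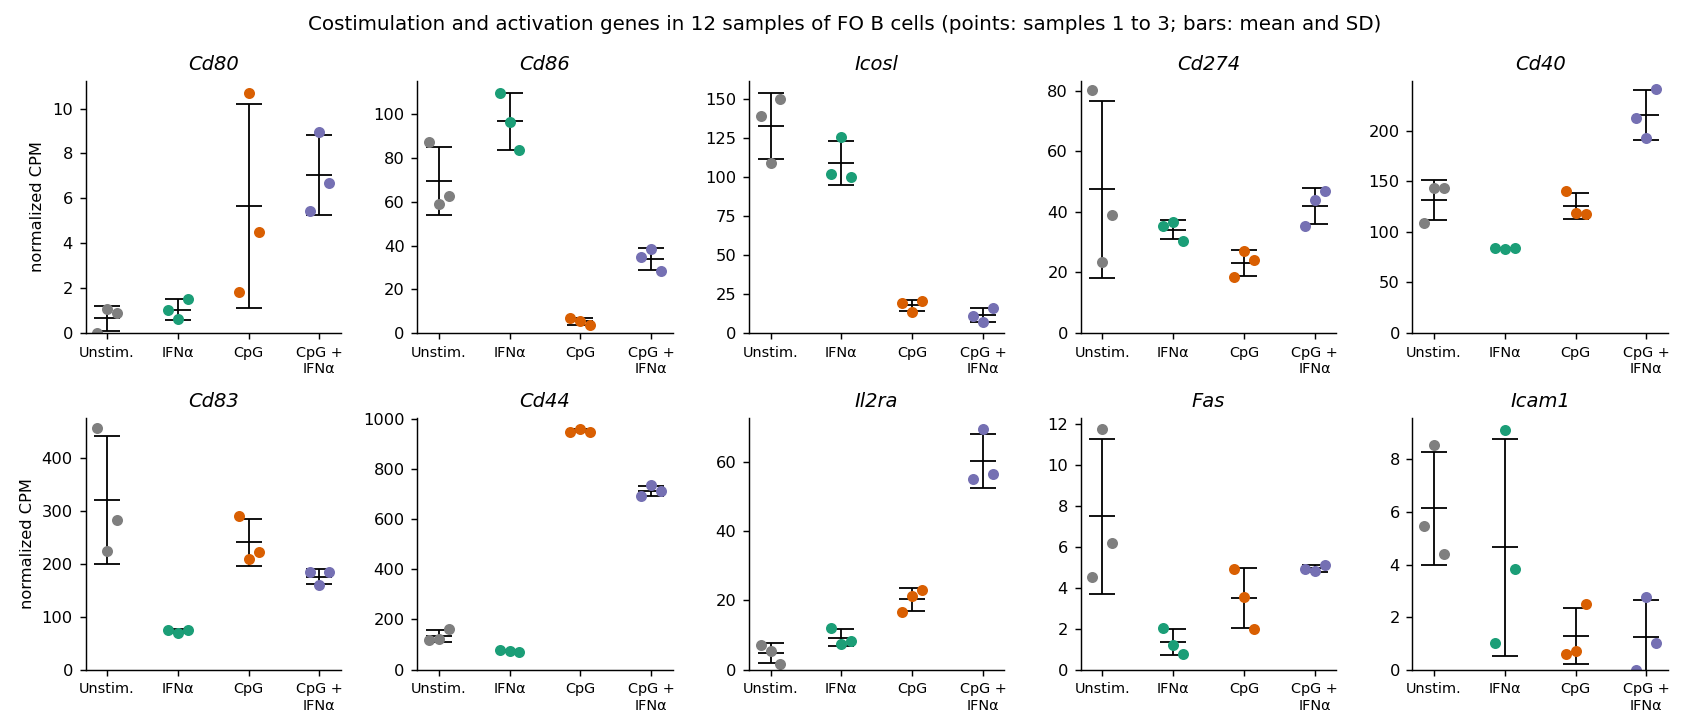
Normalized CPM of the 10 genes in each of the 12 samples, with a separate linear axis for each gene that starts at 0. Points are samples 1 to 3 of each group from left to right, and the black marks are the group mean and SD (n = 3), with bars cut off at 0. Icosl was at 7.24 to 20.5 in all samples with CpG and at 99.97 or more in all others, whereas Cd86 was at 3.49 to 6.75 with CpG and at 28.3 to 38.3 with CpG + IFNα.

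Adding IFNα to CpG up-regulated 2 of the 7 genes against CpG alone (Cd86 and Il2ra), beside 2.95% of all genes, and down-regulated 0, beside 2.01%. With no limit on the fold change, 4 genes were higher in this comparison at an adjusted p under 0.1 (Cd40 and Cd274 in addition), beside 6.54% of all genes, and 3 were lower (Icosl, Cd83 and Cd44), beside 8.83%. Against IFNα alone, CpG + IFNα gave 4 up-regulated genes (Cd40, Cd83, Cd44 and Il2ra), beside 18.7% of all genes, and 2 down-regulated genes (Cd86 and Icosl), beside 25.5%. CpG against IFNα gave 3 up-regulated genes (Cd83, Cd44 and Il2ra), beside 19.4%, and the same 2 down-regulated genes, beside 24.7%. All groups of these 3 comparisons had been cultured with a stimulus for 12 h.

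**Figure D2:**
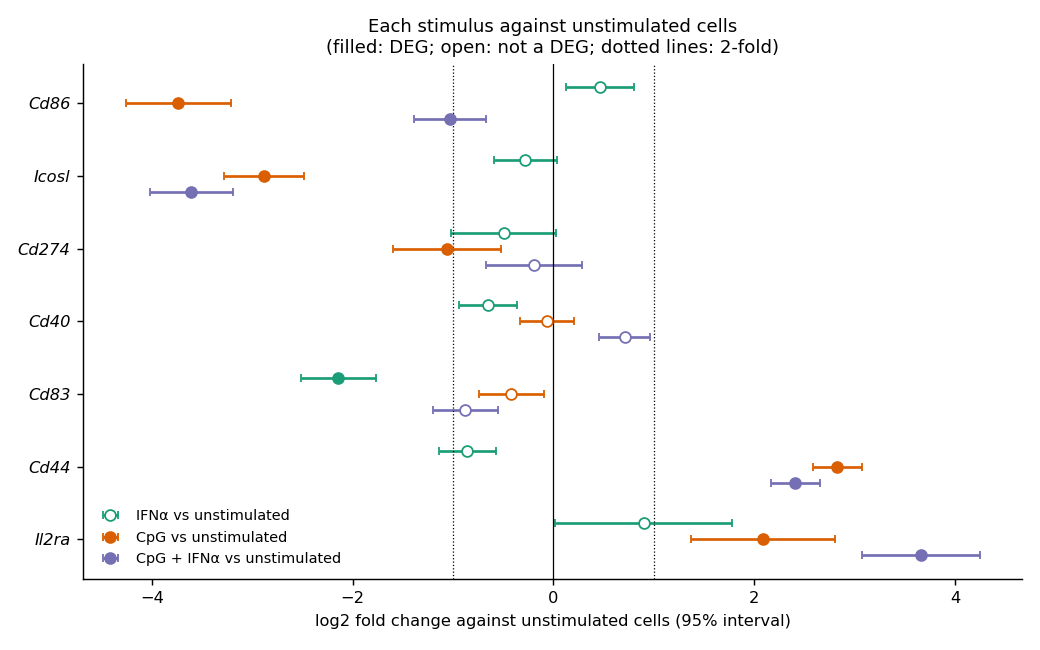
Log2 fold changes of the 7 tested genes other than Cd80 in each stimulated group against unstimulated cells, with 95% intervals from the edgeR fit of all 12 samples. Filled points are DEGs, open points are not, and dotted lines mark a 2-fold change in either direction. Cd44 and Il2ra lay to the right of zero and Icosl to the left in both groups with CpG, whereas Cd83 fell only with IFNα past the 2-fold limit.

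Promoter sequences were taken from RefSeq (GRCm38.p6, 250 bases before to 50 after the annotated start), which matched 7 of the 10 genes and not Cd86, Cd40 or Cd83. Those of 4 genes are shown because they stand for the different courses described below: Il2ra rose with CpG, Cd80 had more than 2 counts only in samples with CpG, Icosl fell, and Cd274 had its lowest mean with CpG. They are written 5′ to 3′ on the strand of the gene, and capitals mark matches of 4 motifs searched on both strands: the ISRE core GAAANNGAA of interferon response, the GAS element TTCNNNGAA bound by STAT dimers, the AP-1 element TGANTCA, and the kappa-B consensus bound by NF-κB.
Cd274 promoter, chr19:29367188-29367487, plus strand: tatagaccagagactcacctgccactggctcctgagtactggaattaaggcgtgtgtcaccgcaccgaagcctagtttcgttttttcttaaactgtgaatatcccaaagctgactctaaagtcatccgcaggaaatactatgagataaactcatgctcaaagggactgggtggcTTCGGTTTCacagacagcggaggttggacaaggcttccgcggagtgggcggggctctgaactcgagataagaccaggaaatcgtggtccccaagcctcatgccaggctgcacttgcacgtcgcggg
Il2ra promoter, chr2:11642542-11642841, plus strand: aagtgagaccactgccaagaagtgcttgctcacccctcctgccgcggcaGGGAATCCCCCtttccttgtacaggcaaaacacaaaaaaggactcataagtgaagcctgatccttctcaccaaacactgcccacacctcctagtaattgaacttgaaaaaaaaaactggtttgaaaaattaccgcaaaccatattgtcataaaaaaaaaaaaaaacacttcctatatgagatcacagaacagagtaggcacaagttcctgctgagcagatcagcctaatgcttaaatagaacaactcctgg
Cd80 promoter, chr16:38458683-38458982, plus strand: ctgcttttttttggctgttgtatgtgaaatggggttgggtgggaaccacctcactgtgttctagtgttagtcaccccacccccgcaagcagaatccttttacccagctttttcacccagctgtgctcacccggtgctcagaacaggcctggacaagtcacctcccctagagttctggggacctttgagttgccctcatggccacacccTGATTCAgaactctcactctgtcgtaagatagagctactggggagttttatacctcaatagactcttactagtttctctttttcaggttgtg
Icosl promoter, chr10:78069118-78069417, plus strand: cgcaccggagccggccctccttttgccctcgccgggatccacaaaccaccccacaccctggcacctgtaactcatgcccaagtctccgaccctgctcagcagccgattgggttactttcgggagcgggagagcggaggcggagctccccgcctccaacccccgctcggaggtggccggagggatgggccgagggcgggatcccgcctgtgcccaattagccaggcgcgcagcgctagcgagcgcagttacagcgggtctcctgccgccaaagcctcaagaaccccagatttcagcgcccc

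The window of Cd274 held an ISRE core on the opposite strand, from -76 to -68 bases relative to the annotated start. That of Il2ra held a kappa-B match on each strand, both within -201 to -191 and overlapping each other, and that of Cd80 held an AP-1 element from -42 to -36. The RefSeq start of Cd80 used here lies inside the gene as GENCODE M21 annotates it. In the windows not shown, Fas held a GAS element and an AP-1 element, Icam1 a GAS element and Cd44 no match, and no match overlapped one of another motif. Icosl also had no match. Over all 32851 RefSeq windows, 8.56% held the ISRE core, 8.3% the GAS element, 7.81% the AP-1 element and 4.51% the kappa-B consensus. These matches describe the sequence and do not show binding.

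Cd80 and Cd86 encode the CD28 ligands. Cd86 (chr16:36603869-36666081, minus strand, GRCm38) was at 87.4, 58.8 and 62.7 normalized CPM in unstimulated samples 1 to 3, at 110, 96.7 and 83.9 with IFNα, at 6.75, 5.70 and 3.49 with CpG, and at 34.9, 38.3 and 28.3 with CpG + IFNα. All CpG samples were the lowest, all CpG + IFNα samples stood between them and the unstimulated ones, and the IFNα and unstimulated groups overlapped. CpG decreased Cd86 13.3-fold against unstimulated cells (log2 fold change -3.74, SE 0.26, adjusted p = 2.03e-14). CpG + IFNα was 6.51-fold above CpG (log2 fold change 2.70, SE 0.27, adjusted p = 1.33e-09), and still 2.04-fold below unstimulated cells (log2 fold change -1.03, SE 0.18, adjusted p = 4.74e-06). The last of these was just past the 2-fold limit and no longer a DEG without unstimulated sample 1 (log2 fold change -0.81) or without CpG + IFNα sample 3 (-0.90). With IFNα alone, the change of 1.38-fold passed the test but not the 2-fold limit (adjusted p = 0.0474).

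Cd80 (chr16:38455561-38496335, plus strand) was near the limit of detection. It had 0, 1 and 1 UMI counts in unstimulated samples, 1, 1 and 2 with IFNα, 3, 15 and 9 with CpG, and 10, 26 and 13 with CpG + IFNα. In normalized CPM, the CpG samples were at 1.84, 10.7 and 4.49 and the CpG + IFNα samples at 5.45, 8.97 and 6.68. Every sample with CpG exceeded every sample without it, and the CpG and CpG + IFNα groups overlapped. The ratio of summed normalized counts to unstimulated cells was 8.49 with CpG and 11.6 with CpG + IFNα. No interval is given for these ratios, since the filter on low counts fixed their direction in part. CpG + IFNα and CpG were not distinguished (log2 fold change 0.41, 95% interval -0.47 to 1.29). Cd80 passed the filter on low counts only through the samples with CpG, so that no test against samples without CpG is given. It did not pass it when CpG + IFNα sample 2 was left out, when counts were drawn down to the smallest total, or when mitochondrial and rRNA genes were removed. It also failed it in most fits of only the groups compared.

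Icosl (chr10:78069302-78083913, plus strand), the ligand of ICOS, was at 139, 109 and 150 normalized CPM in unstimulated samples and at 102, 125 and 99.97 with IFNα. It was at 19.0, 13.5 and 20.5 with CpG and at 10.9, 7.24 and 15.9 with CpG + IFNα. The samples with CpG lay far below all others, and within the samples with CpG and within those without it the groups overlapped. CpG decreased Icosl 7.39-fold (log2 fold change -2.89, SE 0.19, adjusted p = 1.18e-14) and CpG + IFNα 12.2-fold (log2 fold change -3.60, SE 0.20, adjusted p = 7.72e-17). The difference between CpG + IFNα and CpG was -0.72 on the log2 scale (95% interval -1.26 to -0.18, adjusted p = 0.0748), under the 2-fold limit, and became a DEG at -1.04 without CpG + IFNα sample 3. The summed B cell and follicular markers were also lower in all samples with CpG, as given above, and their part in this result was not tested.

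Cd274 (chr19:29367455-29388095, plus strand), which encodes PD-L1, was at 80.1, 23.5 and 38.8 normalized CPM in unstimulated samples, at 35.3, 36.5 and 30.5 with IFNα, at 18.4, 27.1 and 24.0 with CpG, and at 35.5, 43.8 and 46.8 with CpG + IFNα. Unstimulated sample 1 stood far above the other two, and the unstimulated group overlapped each of the other groups. All CpG + IFNα samples were above all CpG samples. The difference between these groups was 1.83-fold (log2 fold change 0.87, SE 0.24, 95% interval 0.37 to 1.36, adjusted p = 0.0149), which passed the test but not the 2-fold limit. Exons of the antisense gene AC119228.1 overlap Cd274 in GENCODE M21, and whether reads were counted by strand is not given in the sources used here.

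Comparisons of Cd274 with unstimulated cells rested on sample 1 of that group. CpG decreased it 2.09-fold (log2 fold change -1.06, adjusted p = 0.000666), and without that sample the change was -0.44 (adjusted p = 0.124). Without CpG sample 1 it was -0.91, again under the 2-fold limit. For CpG + IFNα, the log2 fold change was -0.19 with all samples (95% interval -0.67 to 0.28) and 0.43 without unstimulated sample 1 (adjusted p = 0.0943). For IFNα alone it was -0.50 (adjusted p = 0.193) and 0.11 without that sample. Unstimulated sample 1 had the highest summed erythroid markers of all samples (317 normalized CPM). Its myeloid markers summed to 13.6, the lowest of the unstimulated samples. The part of other cells in its Cd274 level was not tested.

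**Figure D3:**
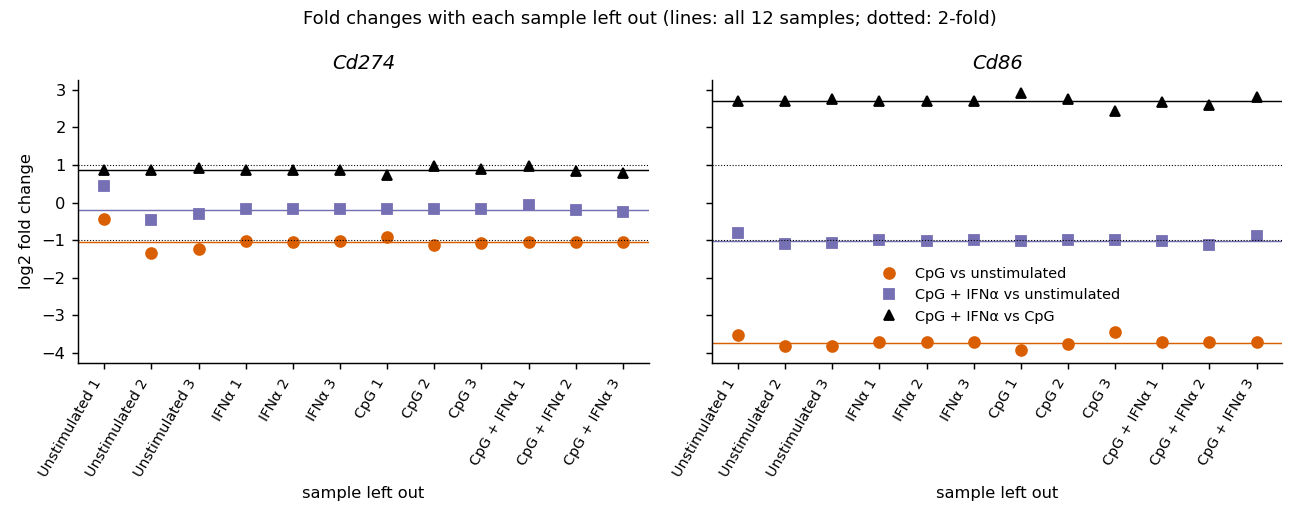
Log2 fold changes of Cd274 (left) and Cd86 (right) in 3 comparisons with each of the 12 samples left out in turn. The horizontal lines give the values with all samples, and dotted lines mark a 2-fold change. Cd274 moved from -1.06 to -0.44 in CpG against unstimulated cells when unstimulated sample 1 was left out, whereas CpG + IFNα against CpG stayed above zero for both genes whichever sample was left out.

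Cd40 (chr2:165055627-165072948, plus strand), the receptor of T cell help, was at 108, 143 and 143 normalized CPM in unstimulated samples, at 83.7, 83.3 and 83.9 with IFNα, at 141, 118 and 117 with CpG, and at 212, 193 and 241 with CpG + IFNα. The IFNα samples were the lowest and the CpG + IFNα samples the highest of all, without overlap with any other group, whereas the CpG and unstimulated groups overlapped. The change with CpG was -0.07 on the log2 scale (95% interval -0.34 to 0.20, adjusted p = 0.661). CpG + IFNα was 1.71-fold above CpG (log2 fold change 0.78, SE 0.12, adjusted p = 9.53e-06) and 1.63-fold above unstimulated cells (log2 fold change 0.71, adjusted p = 7.66e-06), both under the 2-fold limit. With IFNα alone it was 1.57-fold below unstimulated cells (adjusted p = 0.000854), also under the limit. Against IFNα, CpG + IFNα increased Cd40 2.56-fold (log2 fold change 1.36, SE 0.13, adjusted p = 4.23e-11).

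Cd83 (chr13:43784775-43803132, plus strand), a surface protein of activated B cells and dendritic cells, was at 457, 224 and 283 normalized CPM in unstimulated samples and at 75.7, 69.3 and 74.8 with IFNα. It was at 291, 209 and 222 with CpG and at 184, 159 and 185 with CpG + IFNα. The IFNα samples were the lowest of all, and the CpG + IFNα samples lay below all CpG and all unstimulated samples. IFNα decreased Cd83 4.42-fold against unstimulated cells (log2 fold change -2.14, SE 0.18, adjusted p = 2.47e-11). CpG + IFNα was 1.84-fold below unstimulated cells (adjusted p = 1.23e-05) and 1.37-fold below CpG (log2 fold change -0.46, 95% interval -0.78 to -0.13, adjusted p = 0.0582). Neither reached the 2-fold limit with all samples, and the first did so without unstimulated sample 2 (log2 fold change -1.05). CpG against unstimulated cells had a log2 fold change of -0.42 (SE 0.16, adjusted p = 0.0189), under the 2-fold limit, and these groups overlapped. Against IFNα, CpG increased Cd83 3.30-fold (log2 fold change 1.72, adjusted p = 4.69e-10) and CpG + IFNα 2.40-fold (log2 fold change 1.27, adjusted p = 2.52e-07).

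Cd44 (chr2:102811141-102901665, minus strand), the hyaluronan receptor, had high levels in all samples with CpG. It was at 117, 123 and 161 normalized CPM in unstimulated samples, at 77.7, 73.6 and 71.0 with IFNα, at 948, 959 and 947 with CpG, and at 691, 733 and 710 with CpG + IFNα. No groups overlapped, and the 3 CpG samples lay within 1.01-fold of each other. CpG increased Cd44 7.09-fold (log2 fold change 2.83, SE 0.12, adjusted p = 1.09e-19) and CpG + IFNα 5.31-fold (log2 fold change 2.41, SE 0.12, adjusted p = 4.07e-18). IFNα went with lower levels both without CpG (1.81-fold, adjusted p = 1.7e-05) and with it (1.34-fold, adjusted p = 0.00516), in each case under the 2-fold limit.

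Il2ra (chr2:11642807-11693193, plus strand) encodes the α chain that gives the IL-2 receptor its high affinity. It was at 7.28, 5.35 and 1.76 normalized CPM in unstimulated samples, from 8, 5 and 2 counts, at 12.1, 7.30 and 8.39 with IFNα, at 16.6, 21.4 and 23.0 with CpG, and at 55.1, 69.3 and 56.5 with CpG + IFNα. The 4 groups followed each other in this order without overlap. CpG increased Il2ra 4.25-fold against unstimulated cells (log2 fold change 2.09, SE 0.35, adjusted p = 4.08e-06) and CpG + IFNα 12.6-fold (log2 fold change 3.66, SE 0.29, adjusted p = 3.94e-13). CpG + IFNα exceeded CpG 2.97-fold (log2 fold change 1.57, SE 0.19, adjusted p = 8.35e-08). With IFNα alone, the log2 fold change of 0.90 did not pass the test (95% interval 0.02 to 1.78, adjusted p = 0.155), and without unstimulated sample 1 it was 1.38 (adjusted p = 0.0777).

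Fas (chr19:34290666-34327772, plus strand) had 5, 11 and 7 UMI counts in unstimulated samples, 2, 2 and 1 with IFNα, 8, 5 and 4 with CpG, and 9, 14 and 10 with CpG + IFNα. The IFNα samples were at or below 2.02 normalized CPM, and all other samples but CpG sample 3, at 1.997, were above them. The ratio of summed normalized counts with IFNα to unstimulated cells was 0.174 (exact 95% interval 0.0518 to 0.469, counting error only), and that of CpG + IFNα to IFNα was 3.90 (1.51 to 12.8). In a fit without the filter, of 20341 genes, these differences had log2 fold changes of -2.45 (adjusted p = 0.00361) and 2.01 (adjusted p = 0.00509), and the interaction was 3.04 (adjusted p = 0.00857). All IFNα samples of Fas were at or under the detection limit of 3 counts, and these fitted values depend on the prior count.

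Icam1 (chr9:21015985-21028817, plus strand), the ligand of LFA-1, had 6, 8 and 5 counts in unstimulated samples, 1, 15 and 5 with IFNα, 1, 1 and 5 with CpG, and 0, 8 and 2 with CpG + IFNα. In normalized CPM, all unstimulated samples were above all samples with CpG, and the IFNα samples spread 9.04-fold and overlapped every other group. The ratio to unstimulated cells was 0.232 with CpG (exact 95% interval 0.0823 to 0.576) and 0.250 with CpG + IFNα (0.104 to 0.564). These intervals cover counting error only, and not the spread between samples. Without the filter, the log2 fold changes were -2.01 and -1.86, given without p-values for the reason stated for Fas.

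Whether IFNα acted differently with and without CpG was tested as an interaction, the log2 fold change of CpG + IFNα against CpG minus that of IFNα against unstimulated cells. It was positive and past both limits for 4 of the 7 tested genes other than Cd80, beside 3.09% of all genes, and negative for 0, beside 3.17%. For Cd86 the interaction was 2.24 (SE 0.33, adjusted p = 1.26e-05), with both effects of IFNα above zero. For Cd83 it was 1.69 (SE 0.24, adjusted p = 9.92e-06), where IFNα had a log2 fold change of -2.14 without CpG and -0.46 with it. Cd40 gave 1.43 (SE 0.19, adjusted p = 1.93e-06), with IFNα at -0.65 without CpG and at 0.78 with it. Cd274 gave 1.37 (SE 0.36, adjusted p = 0.0113), which was 0.76 without unstimulated sample 1 (adjusted p = 0.151).

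For the other 3 genes no difference between the effects was called. The interaction was 0.44 for Cd44 (95% interval 0.08 to 0.80, adjusted p = 0.115), 0.67 for Il2ra (-0.36 to 1.71) and -0.44 for Icosl (-1.06 to 0.18). The interaction also rests on the unstimulated samples, so that a difference in culture cannot be told apart from it.

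**Figure D4:**
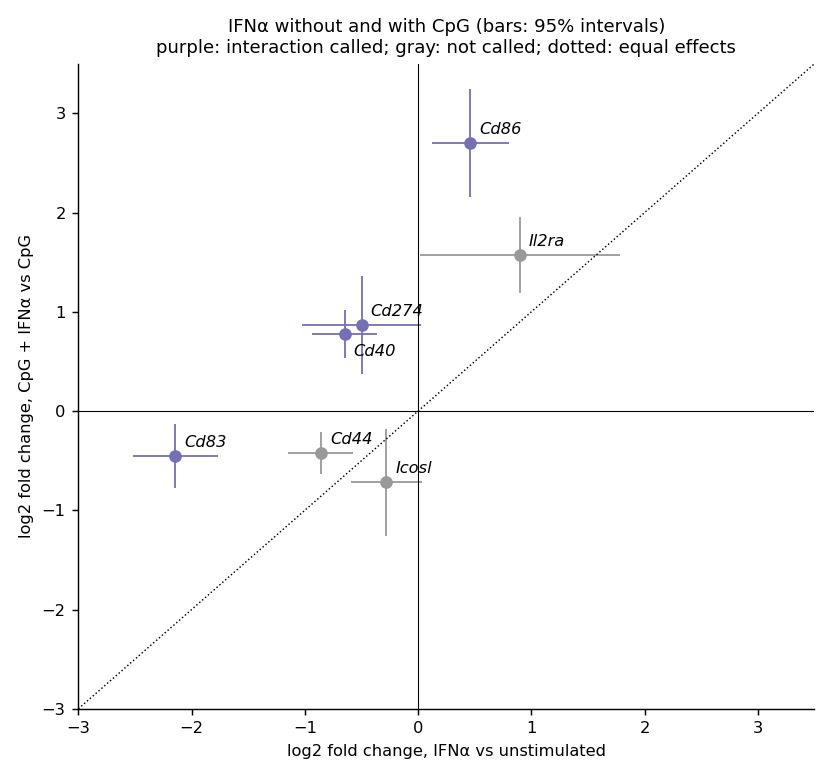
Log2 fold change with IFNα in the absence of CpG (horizontal axis, IFNα against unstimulated cells) and in its presence (vertical axis, CpG + IFNα against CpG) for the 7 tested genes other than Cd80, with 95% intervals. The dotted diagonal marks equal effects. The 4 genes in purple, Cd86, Cd83, Cd40 and Cd274, passed the interaction test and lie above the diagonal.

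Genes that share the surface contact with T cells were followed as a list of 24 receptors and ligands, of which 18 were tested. With IFNα alone, 2 were up-regulated (Lgals9 and Slamf7) and 3 down-regulated (Slamf1, Cd24a and Vsir), beside 4.56% and 4.07% of all genes tested. With CpG, 0 were up-regulated and 10 down-regulated, beside 20.1% and 25.5% of all genes, with a median log2 fold change of -1.14 beside -0.03 over all genes. With CpG + IFNα, 2 were up-regulated and 8 down-regulated, beside 20.3% and 25.6% (median -0.84 beside -0.01). In CpG + IFNα against CpG, 3 were higher (Lgals9, Slamf7 and Cd200) and none lower, beside 2.95% and 2.01%. Lgals9, which encodes galectin-9, was at 167 ± 10.3 normalized CPM (mean ± SD, n = 3) without stimulus, 607 ± 89.4 after IFNα, 139 ± 14.4 after CpG and 535 ± 5.10 after both. Slamf1, a self-binding receptor of lymphocytes, fell with IFNα (log2 fold change -1.35), with CpG (-4.07) and with CpG + IFNα (-4.70). Its means with CpG and with CpG + IFNα were 2.40 and 1.58 normalized CPM, near the detection limit. Slamf7 rose with IFNα (1.32) and with CpG + IFNα (2.05). Cd24a fell with IFNα (-1.43) and with CpG + IFNα (-1.71). Cd200, the ligand of an inhibitory receptor on myeloid cells, was singled out after its values were seen. It fell with CpG (-2.16) and was 1.70 higher in CpG + IFNα than in CpG. It was the only gene of the list with a called interaction (2.06), beside 3.09% of all genes higher and 3.17% lower.

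Of 24 other surface genes of activation and homing, 18 were tested, and CpG up-regulated 3 and down-regulated 12, beside 20.1% and 25.5% of all genes (median log2 fold change -1.81 beside -0.03 over all genes). CpG + IFNα up-regulated 4 and down-regulated 11, beside 20.3% and 25.6% (median -1.70 beside -0.01). Itgb7, an integrin chain of homing to gut, fell with CpG (-6.41) and with CpG + IFNα (-7.00). Its means there were 1.42 and 0.869 normalized CPM, near the detection limit, so that the size of the fall is uncertain. Il4ra, the IL-4 receptor α chain, fell in both (-2.84 and -2.83). Slc7a5, a chain of an amino acid transporter, rose with IFNα (1.22), CpG (3.38) and CpG + IFNα (3.70). With IFNα alone, Slc7a5 was the only gene up-regulated and Cd69 the only one down-regulated, beside 4.56% and 4.07% of all genes. Cd69, an early activation marker, was singled out after its values were seen. It was at 482 ± 57.5 normalized CPM (mean ± SD, n = 3) without stimulus, 167 ± 7.25 after IFNα, 58.04 ± 6.25 after CpG and 213 ± 7.94 after both. Its interaction of 3.41 was called.

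**Figure D5:**
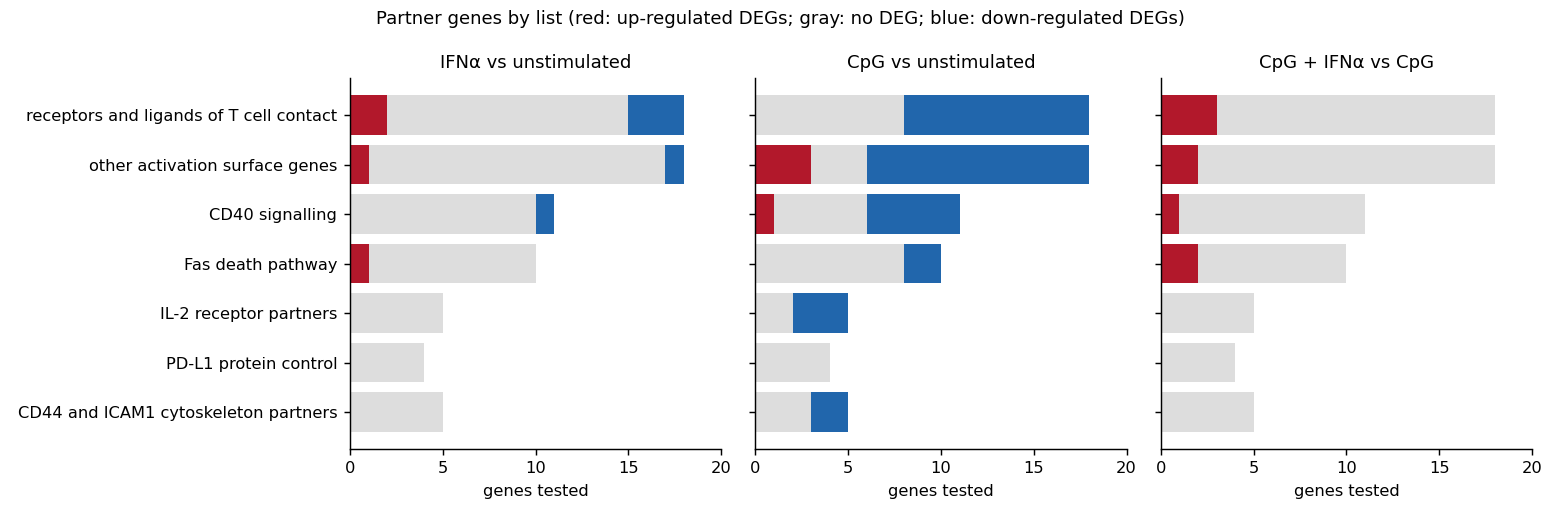
Number of up-regulated (red), uncalled (gray) and down-regulated (blue) genes among those tested in each of 7 lists, for IFNα against unstimulated cells, CpG against unstimulated cells and CpG + IFNα against CpG. With CpG, 10 of 18 and 12 of 18 genes of the first 2 lists were down-regulated, beside 25.5% of all genes tested. In CpG + IFNα against CpG none was down-regulated in any list, near the 2.01% of all genes.

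All 11 listed genes of CD40 signalling were tested. CpG up-regulated 1, Traf1, and down-regulated 5, beside 20.1% and 25.5% of all genes (median log2 fold change -0.61 beside -0.03 over all genes). Traf1, an adaptor bound to TRAF2, was at 47.2 ± 6.47 normalized CPM (mean ± SD, n = 3) without stimulus, 43.8 ± 1.78 after IFNα, 252 ± 28.7 after CpG and 363 ± 5.53 after both. It rose with CpG (log2 fold change 2.41) and with CpG + IFNα (2.94). Map3k14, the kinase NIK of the noncanonical NF-κB pathway, fell with CpG (-3.04) and with CpG + IFNα (-2.61), with an interaction of 1.19. Birc3, a ubiquitin ligase of the same receptor complex, fell in both (-1.38 and -1.38), and so did Traf5 (-2.58 and -1.31). Traf5 was the only gene of the list called between CpG + IFNα and CpG (1.27), beside 2.95% of all genes higher and 2.01% lower. With IFNα alone, 1 gene was called, Tnfaip3, an inhibitor of NF-κB, which was named after its values were seen (log2 fold change -2.52, interaction 2.57), beside 4.07% of all genes down-regulated.

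Of 11 genes of the Fas death pathway, 10 were tested. CpG down-regulated 2, beside 25.5% of all genes, and up-regulated none, beside 20.1% (median log2 fold change 0.01 beside -0.03 over all genes). CpG + IFNα up-regulated 2 and down-regulated 2, beside 20.3% and 25.6%. Cflar, an inhibitor of caspase-8, was at 101 ± 2.49 normalized CPM (mean ± SD, n = 3) without stimulus, 104 ± 8.50 after IFNα, 114 ± 11.7 after CpG and 254 ± 27.8 after both. It rose with CpG + IFNα (log2 fold change 1.33 against unstimulated cells and 1.16 against CpG), and its interaction was called (1.11). Daxx, a chromatin-associated protein named for binding to Fas, rose with IFNα (3.11) and with CpG + IFNα (1.33), with an interaction of -1.28. Casp8 had log2 fold changes of 0.97 with IFNα and 0.92 with CpG + IFNα, under the limit. Fcmr, the Fc receptor of IgM, fell with CpG (-4.71) and with CpG + IFNα (-4.99).

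Il2rb, Il2rg, Itgal and Itgb2 each stood in 2 of the lists. The other chains of the IL-2 receptor and the kinases bound to them were not up-regulated with Il2ra. Il2rb, the β chain, had a group mean of at most 0.405 normalized CPM and was not tested. Of the 5 tested partners, CpG and CpG + IFNα each down-regulated 3, beside 25.5% and 25.6% of all genes: the shared γ chain Il2rg (log2 fold changes -1.72 and -1.54) and the kinases Jak1 (-1.46 and -1.44) and Jak3 (-2.28 and -3.07). Stat5a, which acts downstream of these kinases, had values of 0.03 and 0.59 and was not called. None of the 5 was called between CpG + IFNα and CpG, where 2.95% of all genes were higher and 2.01% lower. Of 4 tested genes that control PD-L1 protein, 0 were called against unstimulated cells, where the shares of all genes up- and down-regulated were 4.56% and 4.07% with IFNα, 20.1% and 25.5% with CpG and 20.3% and 25.6% with CpG + IFNα. Cmtm6, which stabilizes PD-L1, had a log2 fold change of 0.44 after IFNα, -0.63 after CpG and -0.39 after both. Csnk1a1, Spop and Cop1 lay between -0.53 and 0.63 in these comparisons. Of 5 tested partners of CD44 and ICAM-1, CpG and CpG + IFNα each down-regulated 2, beside the same shares of all genes: Msn, which links membrane proteins to actin (-1.52 and -1.25), and Itgb2, the β chain of LFA-1 (-1.18 and -1.70). Rdx (0.96 and 0.80) and Ezr (-0.30 and -0.49), of the same family as Msn, were not called.

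The order of group means differed between the genes. Icosl ran from unstimulated over IFNα and CpG to CpG + IFNα, whereas Cd80 and Il2ra ran in the reverse order. Apart from Cd80, neighbours not distinguished at an adjusted p of 0.1 were unstimulated and IFNα for Icosl and Il2ra, and unstimulated and CpG for Cd40. For Cd274 they were both unstimulated and CpG + IFNα and CpG + IFNα and IFNα. For Cd80, CpG + IFNα and CpG were not distinguished. Its other groups, at the detection limit, are not compared by a test here. Across the 12 samples, log2(normalized CPM + 1) of Cd44 and Icosl had a Pearson r of -0.92, and that of Cd44 and Il2ra of 0.72. Such values over 12 samples of 4 groups mostly show differences between groups.

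The tested genes most like each member over these 12 samples, on the same scale, were Shisa5 (r = 0.98) and Trim12a (0.98) for Cd86, H2-Oa (0.99) and Cbx7 (0.99) for Icosl, Sfxn1 and Bcl2a1d (0.996 each) for Cd44, and Dnajb9 (0.99) and Hilpda (0.98) for Cd83. Those of Il2ra were Slc25a12 and Slc19a2 (0.96 each), and those of Cd80 were Ube2g1 and Kpna6 (0.94 each). Cd80 was at the detection limit in all samples without CpG, so that its values mostly restate the split by CpG. Cd40 was most like Adpgk and Wrnip1 (0.91 each). The highest values for Cd274 were lower, at 0.87 for H3f3b and 0.85 for Zfp384. Shisa5, for instance, had means of 2145 normalized CPM without stimulus, 5012 after IFNα, 102 after CpG and 851 after both.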

How the data were processed

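The authors deposited raw UMI counts per gene for 12 samples, without normalization. Per the paper's methods and the submitters' processing notes, UMI-tools 1.1.2, Trim Galore 0.6.7, HISAT2 2.2.1 (GRCm38) and featureCounts 2.0.1 were used, and the DEGs of the study were called with DESeq2. Positions are from GENCODE M21, which holds all 22561 gene identifiers.

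Genes were filtered with filterByExpr, which left 9431, and a quasi-likelihood model of all 4 groups (glmQLFit, glmQLFTest, TMM scaling, 8 residual degrees of freedom) was fitted with edgeR 4.0.16 (R 4.3.3). Adjustment was by Benjamini-Hochberg over all genes tested, and tests were two-sided. Genes past an adjusted p of 0.1 whose log2 fold change exceeded 1 in size were taken as DEGs. Ratios of Fas and Icam1 carry exact 95% binomial intervals. Depth of 922450 to 2923865 counts limits what can be seen at low levels. Counts of at most 3 in every sample of a group were treated as the detection limit.

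The 10 genes, the partner lists and the markers were chosen with earlier results of these data known. Named from each list were the up to 4 tested genes with the smallest p in CpG + IFNα against unstimulated cells, and genes most like a member were the 2 with the highest Pearson r of log2(normalized CPM + 1). A result that falls under this rule is not reported here. Other genes were named after their values were seen, which the text says for Cd200, Cd69 and Tnfaip3 and which also holds for Vsir. The test was checked on simulated counts. No samples were left out. Replicate pairs differed by more than sampling noise. Alternatives were other normalizations, filters, thresholds and fits, DESeq2 1.42.0, counts drawn down to 922450, the replicate number as a block, and fits that each left out 1 sample.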

Additional observations from a re-analysis of the deposited data

Results flagged for a closer look

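The effect of IFNα differed with and without CpG for 4 genes, by the interaction test of edgeR. The interaction on the log2 scale was 2.24 for Cd86, 1.69 for Cd83, 1.43 for Cd40 and 1.37 for Cd274. The effect of IFNα on Cd40 was -0.65 without CpG and 0.78 with it, and all 3 CpG + IFNα samples stood above all 3 CpG samples while all 3 IFNα samples stood below all 3 unstimulated ones. For Cd274 the interaction was 0.76 (adjusted p = 0.151) without unstimulated sample 1. The means in unstimulated cells enter each of these values, and whether a difference in culture took part was not tested.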

How the results depend on the processing

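Log2 fold changes of single genes kept their direction and call in 558 of 588 values over 11 alternative settings, with 17 calls lost, 13 gained and no change of direction. The settings with another limit on the fold change or none, and the test against a fold change of 2, used the same fold changes. There, a change of direction was not possible. A further 28 values could not be had, 19 of Cd80 (12 of them calls) and 1 of Il2ra because the gene did not pass the filter, and 8 because fits of only the groups compared hold no interaction. Cd80 is left out of the up-regulated genes named or counted in this section, as its difference was fixed in part by the filter. Counts under other thresholds differ by construction. Without the filter on low counts, Fas was also called lower with IFNα, and Cd86 in CpG + IFNα against unstimulated cells was -0.91. Adjusted p-values of that fit could be far smaller than with the filter, as given above for Cd83, so that its calls carry little weight. With a log2 fold change over 2, CpG + IFNα down-regulated only Icosl against unstimulated cells and up-regulated only Cd86 against CpG. Against IFNα, CpG + IFNα then up-regulated Cd44 and Il2ra and down-regulated Icosl, and CpG up-regulated only Cd44. The interaction was called only for Cd86. Tested against a fold change of 2, CpG + IFNα down-regulated only Icosl against unstimulated cells, and the interaction was called for Cd86 and Cd83. With no limit on the fold change, IFNα gave 1 up-regulated and 3 down-regulated genes, beside 12.4% and 11.9% of all genes. CpG + IFNα against CpG gave 4 and 3, beside 6.54% and 8.83%.

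With each sample left out, 649 of 665 values kept direction and call, and 7 more, of Cd80 (4 of them calls), had no value without CpG + IFNα sample 2. The count of up-regulated genes with IFNα ranged from 0 to 1 and of down-regulated genes from 1 to 2. Down-regulated genes ranged from 3 to 5 in CpG against unstimulated cells and from 0 to 1 in CpG + IFNα against CpG. In CpG against unstimulated cells, Cd274 was not called without unstimulated sample 1 or without CpG sample 1. The lower end of 3 was then reached only with Fas or Icam1. Counts above those of the report came from Fas and Icam1, which passed the filter in some of these fits, and from 3 tested genes: Il2ra with IFNα without unstimulated sample 1 (1.38), Icosl in CpG + IFNα against CpG without CpG + IFNα sample 3 (-1.04), and Cd83 in CpG + IFNα against unstimulated cells without unstimulated sample 2 (-1.05). The log2 fold change of Cd274 ranged from -0.79 to 0.11 with IFNα and from -0.47 to 0.43 with CpG + IFNα against unstimulated cells, that of Cd40 with CpG from -0.17 to 0.017, and the interaction of Cd80, which the report does not use, from -0.65 to 0.49.

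With the replicate number as a block (replicate block), no call of a member changed, and the interaction was called for the same number of genes, 4. The numbers were not taken to pair the samples: deviations of same-numbered samples from their group means had r between -0.07 and 0.20, above 0.1 in 5 of 18 pairs, and those of different numbers between -0.20 and 0.054. The deposited barcode list numbers them WT1 to WT3, which the labels do not tie to mice. As a hint from the data, 10 of 12 samples matched their own number best, and erythroid markers were highest in sample 1 and lowest in sample 3 of every group.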
